A study of Mus musculus with 26 samples.

Results

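The angiopoietin-Tie axis is described here through 4 genes, the ligand genes Angpt1 and Angpt2 and the receptor genes Tek, whose product is also called Tie2, and Tie1. They were chosen by name, and 1 probe set was found for each among the 19938 genes measured on 26 arrays. Angiopoietins are secreted proteins that bind the extracellular part of Tie2, a receptor tyrosine kinase of endothelial cells and of blood stem cells. Angiopoietin 1 activates Tie2, while angiopoietin 2 can act as an activator or as an antagonist, depending on the setting. Tie1 binds no angiopoietin with high affinity and acts by pairing with Tie2. In bone marrow the pathway is best known for keeping stem cells quiescent in their niche.

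The RNA came from stem cells and progenitors of blood, sorted out of the marrow of mice aged 8 to 15 weeks. All mice carried the Gata1-EGFP reporter (Gata1-EGFP Tg/+), in which enhanced green fluorescent protein reports the activity of Gata1, a transcription factor of erythroid cells, megakaryocytes, mast cells and eosinophils. Cells without the transgene were not analysed here, and neither were reporter-positive stem cells, which the series also names. Pre-megakaryocyte-erythroid progenitors (PreMegE, n = 3) were Lin-, cKit+, Sca1- and CD41- cells without FcgRII/III that carried CD150 but not CD105, and their label names no reporter gate. Granulocyte-macrophage progenitors carried FcgRII/III and were split into reporter-positive (GMP GFP+, n = 3) and reporter-negative cells (GMP GFP-, n = 4). Pre-granulocyte-macrophage progenitors lacked FcgRII/III, CD150 and CD105 and were split likewise (PreGM GFP+ and PreGM GFP-, n = 3 each). Common lymphoid progenitors (CLP, n = 3) were Lin-, B220-, Flt3+ and IL-7Ra+ with low Sca1 and cKit, and their label names no reporter gate either. Lymphoid-primed multipotent progenitors (LMPP, n = 4) were reporter-negative Lin-, cKit+ and Sca1+ cells with high Flt3 and no CD150. Haematopoietic stem cells (HSC GFP-, n = 3) came from the same Lin-, Sca1+ and cKit+ compartment and were CD150+, Flt3- and reporter-negative.

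Each array gives a log2 signal per probe set, and the median of all values was 6.61. A signal under that median was not shown to exceed background, so a difference from such a mean is one of signal and is not given as a fold. The transcripts behind the gates were read first. Gata1 was 7.92 to 8.74 on the arrays of PreMegE, GMP GFP+ and PreGM GFP+, against 6.21 to 7.14 on those of the other groups. Slamf1, which encodes CD150, was 6.29 to 7.79 in PreMegE and HSC GFP-, against 4.57 to 5.98 elsewhere. Fcgr3, which encodes an FcgRIII chain, was 8.98 to 10.19 in the 2 GMP groups, against 6.13 to 7.54 elsewhere. Il7r, which encodes IL-7Ra, was 9.72 to 10.36 in CLP, against 4.77 to 7.23 elsewhere. On every array these 4 genes followed the gates that the labels name, which for Gata1 leaves out PreMegE and CLP. Slamf1 in PreGM GFP+, gated as CD150-, was however 5.78 to 5.98. That was above its values in the other groups outside PreMegE and HSC GFP-. Other gate transcripts followed the labels less closely. Itga2b, which encodes CD41, averaged 8.37 in PreMegE, gated as CD41-, within group means of 6.98 to 8.63. Flt3 averaged 11.44 in LMPP and 11.13 in CLP. In HSC GFP-, gated as Flt3-, it was 8.18, against 6.34 in PreGM GFP+ and 6.95 in PreMegE. The labels name no animal behind a replicate, so p-values rest on the spread between samples of a group, and that spread may be technical. The number of arrays limits the precision, and fewer cells of a type and less RNA per cell cannot be told apart in sorted pools.

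The 4 genes differed in their pattern over the groups. Angpt1 was high in most groups and low in GMP GFP- and CLP. Tek was highest in HSC GFP-, with PreMegE and PreGM GFP+ next and the remaining groups lower. Tie1 was raised in HSC GFP- alone among the 8 groups, and Angpt2 stayed near the median signal throughout. A moderated F test over the 8 groups in limma, with Benjamini-Hochberg adjustment across the whole table, called 3 of the 4, against 15.2% of all genes. The F statistic was 49.9 for Angpt1 (adjusted p = 1.11e-09), 20.6 for Tie1 (adjusted p = 1.783e-06), 19.3 for Tek (adjusted p = 2.964e-06) and 1.01 for Angpt2 (adjusted p = 0.6745). The highest group mean exceeded the lowest by 4.09 log2 units for Angpt1, 2.09 for Tek, 1.27 for Tie1 and 0.66 for Angpt2.

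**Figure D1:**
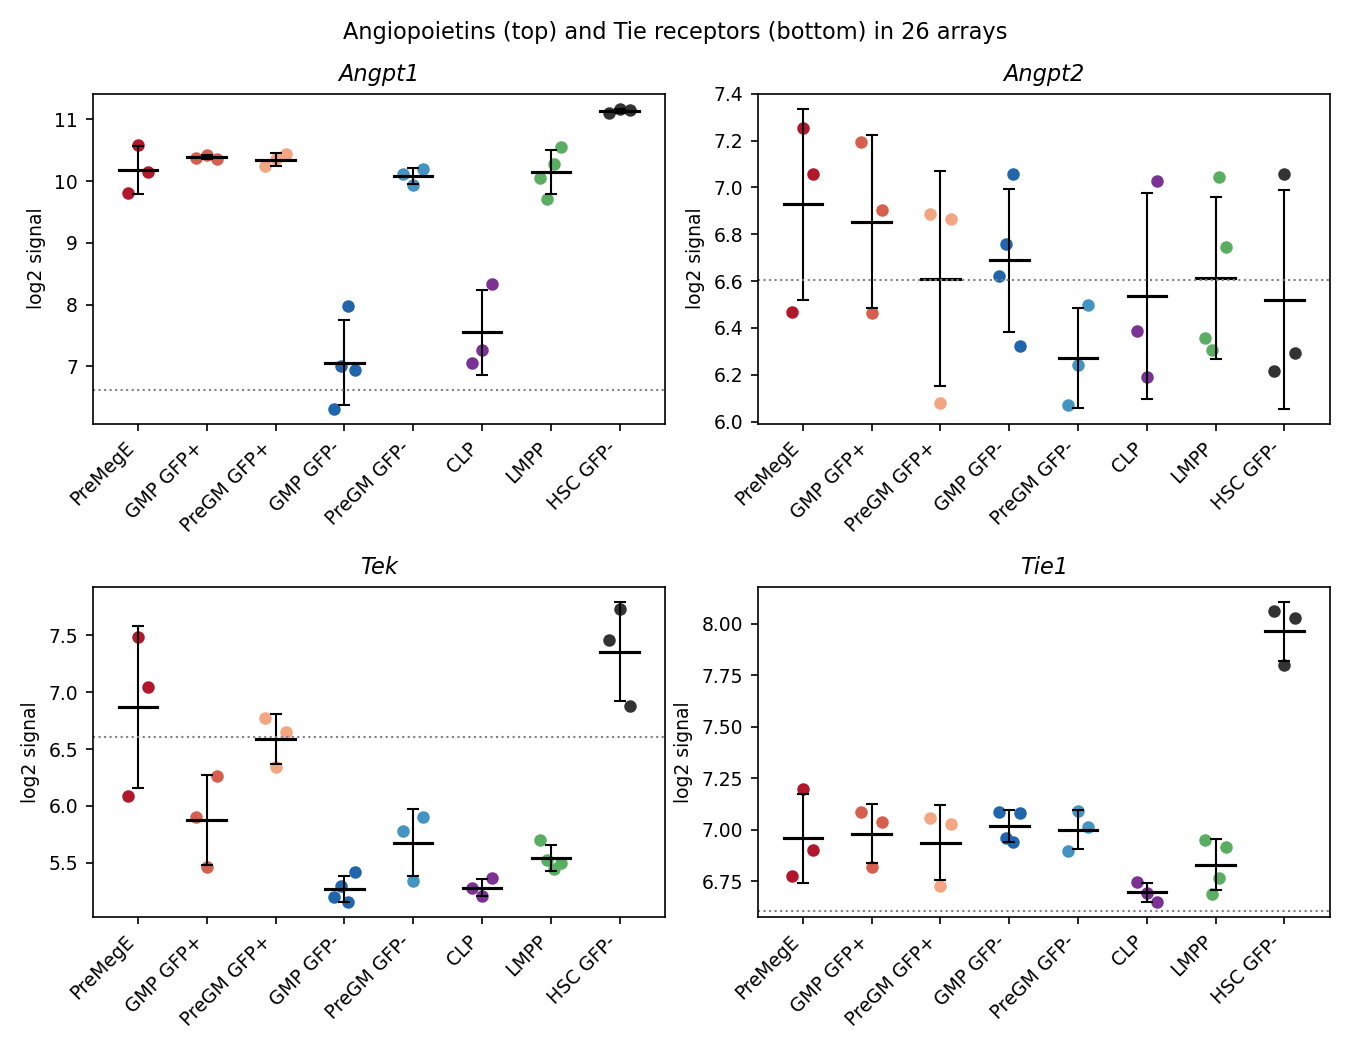
Log2 signal (vertical axis) of Angpt1, Angpt2, Tek and Tie1 on each of 26 arrays, by sorted group (horizontal axis). Points are arrays, black bars are group means with SD, and the dotted line is the median of all values, 6.61; Angpt1 drops in GMP GFP- and CLP, Tek lies above the line on average in HSC GFP- and PreMegE, and Tie1 stands out in HSC GFP-.

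Angpt1, the activating ligand, had a log2 signal of 9.80, 10.58 and 10.15 in PreMegE, 10.38, 10.42 and 10.36 in GMP GFP+, and 10.24, 10.36 and 10.44 in PreGM GFP+. It was 6.31, 7.0, 7.97 and 6.93 in GMP GFP-, 10.12, 9.94 and 10.20 in PreGM GFP-, and 7.05, 7.26 and 8.33 in CLP. In LMPP it was 10.04, 9.72, 10.28 and 10.56, and in HSC GFP- it was 11.10, 11.17 and 11.16. Every array of GMP GFP- and CLP thus lay below every array of the other 6 groups, and every HSC GFP- array lay above all others. By group mean the order was HSC GFP- (11.14), GMP GFP+ (10.38), PreGM GFP+ (10.35), PreMegE (10.18), LMPP (10.15), PreGM GFP- (10.09), CLP (7.55) and GMP GFP- (7.05). Of the 7 steps between neighbours in that order only the one from CLP to PreGM GFP- was called, and it measured 2.54 log2 units (adjusted p = 2.802e-05 in limma), between groups for which 1.53% of all genes were called.

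Angpt1 was the member that differed in the reporter split of GMP. Angpt1 averaged 10.38 ± 0.03 in GMP GFP+ (SD, n = 3) and 7.05 ± 0.69 in GMP GFP- (SD, n = 4). The log2 difference was 3.33 ± 0.29 (SE; 95% interval 2.72 to 3.94), a 10.05-fold higher signal (adjusted p = 6.185e-08 in limma). Replicate 1 of GMP GFP-, at 6.31, lay under the median signal, so folds against this group may not equal those of the RNA. Angpt1 was the 1 gene of the 4 called in this GMP comparison, which called 7.27% of all genes, 3.22% higher and 4.05% lower. Centring each array on its median turned that split into 2.17% higher and 5.29% lower, with Angpt1 still called.

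In PreGM the same split left Angpt1 at 10.35 ± 0.10 in PreGM GFP+ and 10.09 ± 0.13 in PreGM GFP- (SD, n = 3 each), a difference of 0.26 ± 0.32 that was not called (95% interval -0.39 to 0.92). The reporter effect on Angpt1 in PreGM minus that in GMP was -3.07 ± 0.43 log2 units (adjusted p = 0.0002437 in limma), a test that called 0.702% of all genes. Among the 4 genes only Angpt1 was called there. The lower level of GMP GFP- appeared in the step from PreGM GFP- as well, where Angpt1 was 8.17-fold lower in GMP GFP- than in PreGM GFP- (log2 difference -3.03 ± 0.29, adjusted p = 9.307e-07). Only Angpt1 of the 4 was called in that step, which called 1.39% of all genes. Between GMP GFP+ and PreGM GFP+ the difference in Angpt1 was 0.04, with a 95% interval of -0.62 to 0.69, and 0 of the 4 genes were called, against 1.02% of all genes.

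Angpt1 also differed on the lymphoid side. It averaged 7.55 ± 0.69 in CLP (SD, n = 3) and 10.15 ± 0.36 in LMPP (SD, n = 4), which is 6.07-fold lower in CLP (log2 difference -2.60 ± 0.29, adjusted p = 6.857e-06 in limma). It was again the only one of the 4 called, in a comparison that called 1.57% of all genes. In PreGM GFP-, against LMPP, Angpt1 differed by -0.06 (95% interval -0.67 to 0.55), and 0 of the 4 genes were called, against 0.873% of all genes.

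Within the 2 low groups the arrays spread widely. Replicate 3 of GMP GFP- had the highest Angpt1 of its group (7.97), and its Meis1, which encodes a homeobox factor of stem cells, was 8.72 against 7.12 to 7.68 on the other 3 arrays. Replicate 3 of CLP had the highest Angpt1 of CLP (8.33), and its Kit, which encodes the sorting antigen cKit, was 9.10 against 7.63 and 7.79. The part of these arrays in the Angpt1 levels was not tested. Without GMP GFP- replicate 3 the GMP reporter difference was 3.64, and without CLP replicate 3 the difference between CLP and LMPP was -2.99.

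The higher Angpt1 signal of HSC GFP- passed the test against GMP GFP- and CLP and against none of the other 5 groups. LMPP was lower than HSC GFP- by 0.99 ± 0.29 log2 units (adjusted p = 0.08988), PreMegE by 0.97 ± 0.32 (adjusted p = 0.117) and PreGM GFP+ by 0.79 ± 0.32 (adjusted p = 0.235). GMP GFP+ was lower by 0.76 ± 0.32 (adjusted p = 0.2392) and PreGM GFP- by 1.06 ± 0.32 (adjusted p = 0.05662). The arrays of HSC GFP- overlapped with none of these groups, and their SD was 0.03. Without regard to direction, 12% of all genes did not overlap between LMPP and HSC GFP-. The share was 16.9% for PreMegE and 17.9% for PreGM GFP+, each against HSC GFP-. It was not counted for GMP GFP+ and PreGM GFP-. The difference from LMPP passed the test without GMP GFP- replicate 3 (adjusted p = 0.03193) or CLP replicate 3 (adjusted p = 0.03982), neither of which is in the comparison, and that from PreMegE passed without GMP GFP- replicate 3 (adjusted p = 0.04502). Over all arrays left out in turn the LMPP difference measured -1.13 to -0.85 and the PreMegE difference -1.17 to -0.78.

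Angpt2, the context-dependent ligand, was near the median signal in every group. It was 6.47, 7.26 and 7.06 in PreMegE, 7.19, 6.46 and 6.90 in GMP GFP+, and 6.88, 6.08 and 6.86 in PreGM GFP+. In GMP GFP- it was 6.62, 6.76, 7.06 and 6.32, in PreGM GFP- 6.07, 6.24 and 6.50, and in CLP 6.39, 6.19 and 7.03. LMPP had 6.36, 6.31, 7.04 and 6.74, and HSC GFP- had 6.21, 7.06 and 6.29. Group means ran from 6.27 in PreGM GFP- to 6.93 in PreMegE, and neighbouring groups overlapped at each of the 7 steps. Angpt2 was called in 0 of the 28 pairs of groups, and its largest pairwise difference was that between PreMegE and PreGM GFP-, the ends of that order.

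Promoter sequences were at hand for Tek and Tie1 and not for Angpt1 or Angpt2, so only the receptors are given with theirs. GATA, ETS and E-box factors are known regulators of blood and endothelial genes. Both sequences are RefSeq's, on GRCm38.p6, from 250 bases before to 50 bases after the start site, and are written 5′ to 3′ along the gene. Tek lies on the forward strand at chr4:94739039-94739338 and Tie1 on the reverse strand at chr4:118489800-118490099. Capitals mark matches on either strand to 3 motifs. The GATA motif was searched as the letters AGATAA, as well as TGATAA, as well as AGATAG, as well as TGATAG. The ETS motif was searched as AGGAAG, as well as CGGAAG, and the E-box as CAGATG.
Tek: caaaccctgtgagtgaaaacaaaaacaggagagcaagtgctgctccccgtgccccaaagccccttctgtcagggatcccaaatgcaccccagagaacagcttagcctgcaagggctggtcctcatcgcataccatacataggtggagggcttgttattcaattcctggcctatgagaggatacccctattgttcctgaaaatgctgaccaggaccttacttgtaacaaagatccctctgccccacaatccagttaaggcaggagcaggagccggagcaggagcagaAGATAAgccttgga
Tie1: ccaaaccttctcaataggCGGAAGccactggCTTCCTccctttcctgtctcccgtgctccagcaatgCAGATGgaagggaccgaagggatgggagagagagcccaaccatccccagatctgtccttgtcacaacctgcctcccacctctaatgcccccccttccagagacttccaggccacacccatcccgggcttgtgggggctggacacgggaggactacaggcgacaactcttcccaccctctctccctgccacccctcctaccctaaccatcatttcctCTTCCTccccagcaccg
Tek held 1 GATA match, AGATAA beginning 37 bases after the start site, and none of the ETS or E-box letters. Tie1 held 3 ETS matches, CGGAAG at -232 and AGGAAG on the opposite strand at -219 and 34, and 1 E-box match at -183, with none of the GATA letters. Of 32851 promoters of the same length, 29.8% held a GATA match, 46.5% an ETS match and 17.2% the E-box. The matches do not overlap one another. They are matches of letters and not binding sites shown here. The motifs were chosen with these sequences in view, so the shares are no test of the matches.

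Tek, the gene for the angiopoietin receptor Tie2, was 6.09, 7.48 and 7.04 in PreMegE, 5.90, 5.47 and 6.26 in GMP GFP+, and 6.77, 6.34 and 6.65 in PreGM GFP+. It was 5.20, 5.30, 5.16 and 5.41 in GMP GFP-, 5.78, 5.34 and 5.90 in PreGM GFP-, and 5.28, 5.21 and 5.36 in CLP. LMPP had 5.70, 5.52, 5.45 and 5.50, and HSC GFP- had 7.46, 7.73 and 6.88. Only HSC GFP- and PreMegE had means above the median signal, so the differences below are of signal and may not equal those of the RNA. The order by mean was HSC GFP- (7.36), PreMegE (6.87), PreGM GFP+ (6.59), GMP GFP+ (5.88), PreGM GFP- (5.68), LMPP (5.54), CLP (5.28) and GMP GFP- (5.27). No step between neighbours in that order was called, but 12 of the 28 pairs of groups were.

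Tek was lower in LMPP than in HSC GFP-, with averages of 5.54 ± 0.11 for LMPP (SD, n = 4) and 7.36 ± 0.44 for HSC GFP- (SD, n = 3). The difference was -1.81 ± 0.24 (SE; adjusted p = 7.664e-05 in limma). PreMegE, with a mean of 6.87 ± 0.71 (SD, n = 3), differed from HSC GFP- by -0.49 in Tek, which did not pass the same test (95% interval -1.03 to 0.05, adjusted p = 0.4689). That interval still allows Tek to be lower in PreMegE by as much as 1.03. It measured -0.093 without PreMegE replicate 1, -0.79 without PreMegE replicate 2 and -0.30 without HSC GFP- replicate 2. PreMegE exceeded LMPP in Tek by 1.33 (adjusted p = 0.001381), where 3.86% of all genes were called, and PreGM GFP- by 1.20 (adjusted p = 0.009221), where 3.11% were. PreGM GFP+ exceeded LMPP by 1.05 (adjusted p = 0.01394), where 3.2% of all genes were called. In GMP GFP+, against HSC GFP-, Tek differed by -1.48 (adjusted p = 0.0007559), where 4.1% of all genes were called.

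The reporter-positive progenitors had more Tek signal than their reporter-negative counterparts in both splits, although neither split passed the test alone. Tek averaged 6.59 ± 0.22 in PreGM GFP+ and 5.68 ± 0.29 in PreGM GFP- (SD, n = 3 each), a difference of 0.92 ± 0.26 (95% interval 0.37 to 1.46, adjusted p = 0.0797). In PreGM 0 of the 4 genes were called, against 2.05% of all genes. Tek averaged 5.88 ± 0.40 in GMP GFP+ (SD, n = 3) and 5.27 ± 0.11 in GMP GFP- (SD, n = 4), a difference of 0.61 ± 0.24 (adjusted p = 0.1397). In both splits every reporter-positive array lay above every reporter-negative one, as the arrays did, in one direction or the other, for 12.3% of all genes in PreGM and 23.7% in GMP.

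The mean of the 2 reporter effects, a contrast added after the values were seen, was 0.76 ± 0.18 for Tek (95% interval 0.39 to 1.13, adjusted p = 0.007825 in limma). That contrast called 8.73% of all genes, 3.8% higher and 4.93% lower, and centring each array on its median turned the split into 2.36% higher and 6.59% lower. It called Tek and Angpt1 of the 4, both higher, with Angpt1 at 1.80 ± 0.22. That Angpt1 mean joins an effect of 3.33 in GMP with one of 0.26 in PreGM, which was not called. For Tek the 2 reporter effects differed by 0.31 (95% interval -0.43 to 1.05), which was not called. That value was 0.10 without GMP GFP+ replicate 2, 0.14 without PreGM GFP- replicate 2 and 0.50 without GMP GFP+ replicate 3. The Tek effect in PreGM passed the test without PreMegE replicate 1 (adjusted p = 0.0139) or PreMegE replicate 2 (adjusted p = 0.03816), arrays that enter it through the shared estimate of spread, and measured 0.75 to 1.04 over all arrays left out in turn. PreMegE replicate 1, the lowest of its group in Tek, was also the widest of its group around the fitted means (residual SD 0.28, against 0.21 and 0.22).

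**Figure D2:**
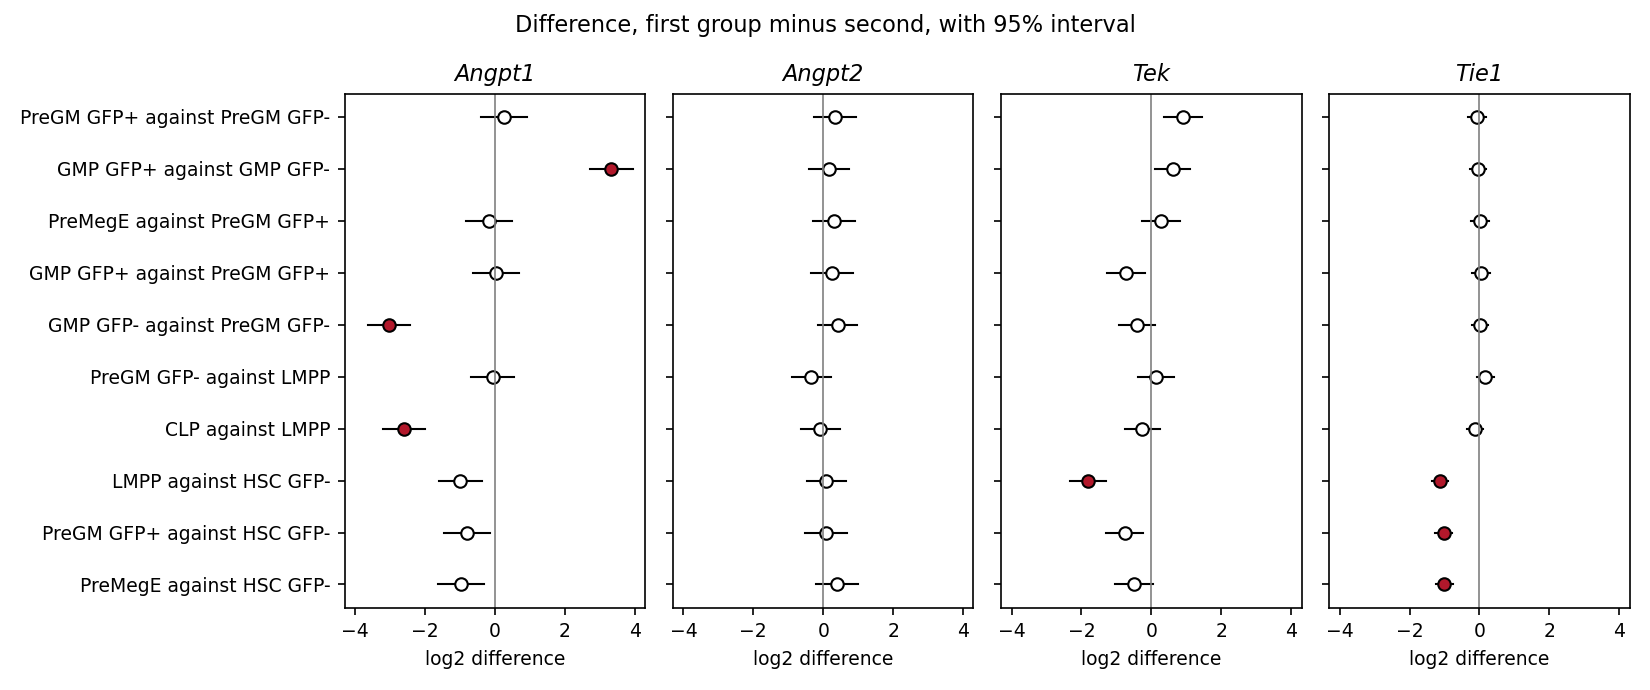
Log2 differences (horizontal axis) of the 4 genes in the comparisons named at left, each as first-named minus second-named group. Points are limma estimates with 95% intervals, and red marks those called at an adjusted p under 0.05; Angpt1 is called where GMP GFP- or CLP is compared, Tie1 where HSC GFP- is compared, and Tek in LMPP against HSC GFP-.

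Tie1, which encodes the partner receptor of Tie2, was 6.77, 7.20 and 6.90 in PreMegE, 7.08, 6.82 and 7.04 in GMP GFP+, and 7.06, 6.73 and 7.03 in PreGM GFP+. It was 7.09, 6.96, 6.94 and 7.08 in GMP GFP-, 6.90, 7.09 and 7.01 in PreGM GFP-, and 6.75, 6.69 and 6.65 in CLP. LMPP had 6.95, 6.69, 6.77 and 6.91, and HSC GFP- had 8.06, 7.80 and 8.03. All HSC GFP- arrays were above every other array, and all group means exceeded the median signal. The other groups lay in a narrow order of GMP GFP- (7.02), PreGM GFP- (7.0), GMP GFP+ (6.98), PreMegE (6.96), PreGM GFP+ (6.94), LMPP (6.83) and CLP (6.70), and no step among them was called.

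Tie1 was lower than in HSC GFP- in each of the 7 other groups, by 0.95 to 1.27 log2 units, and these were the 7 of 28 pairs in which it was called. It was 2.19-fold lower in LMPP than in HSC GFP- (log2 difference -1.13 ± 0.11, adjusted p = 1.608e-06 in limma), where LMPP averaged 6.83 ± 0.12 (SD, n = 4) and HSC GFP- averaged 7.96 ± 0.14 (SD, n = 3). LMPP against HSC GFP- called Tek and Tie1, 2 of the 4 genes and both lower, against 2.32% of all genes and 1.28% in that direction. PreMegE against HSC GFP- called Tie1 alone (-1.01 ± 0.12, adjusted p = 9.749e-06), against 3.18% of all genes. PreGM GFP+ against HSC GFP- again called Tie1 alone (-1.03 ± 0.12, adjusted p = 7.074e-06), against 3.63% of all genes. PreMegE against PreGM GFP+ called 0 of the 4, in a comparison that called 0.0652% of all genes.

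Tie1 was called in neither reporter split. It differed by -0.06 between PreGM GFP+ and PreGM GFP- (95% interval -0.31 to 0.19) and by -0.04 between GMP GFP+ and GMP GFP- (95% interval -0.27 to 0.20). Over all 28 pairs of groups, which share arrays, Angpt1 and Tek were called in 12 each, Tie1 in 7 and Angpt2 in 0. The share of all genes called ran from 0.0652% to 12.9% over those pairs, with a median of 3.74%. Of the called pairs, HSC GFP- took part in 2 for Angpt1, 5 for Tek and 7 for Tie1.

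The likeness of the members to one another and to other genes was measured as Pearson's r over the 8 group means, which share all their arrays, and is a description. Angpt1 and Tek had r = 0.73, Tek and Tie1 0.71, and Angpt1 and Tie1 0.48. Angpt2 had r between -0.16 and 0.20 with the other 3. Candidates for likeness were 2734 or more other genes that passed the F test and reached the median signal in at least 1 group.

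The 5 genes most like Angpt1 were Uba7 (r = 0.957), Crim1 (0.948), Vezf1 (0.94), Car2 (0.937) and Ralgps2 (0.932). Car2, which encodes a carbonic anhydrase abundant in erythroid cells, averaged 8.86 in GMP GFP+ and 6.66 in GMP GFP-, and 6.31 in CLP and 9.50 in LMPP. Its mean was highest in HSC GFP- (10.50), followed by PreGM GFP+ (10.14) and PreMegE (9.83), with 8.51 in PreGM GFP-. Those most like Tek were Aldh1a1 (0.985), Cyyr1 (0.963), Ttc39b (0.951), Ctdsp2 (0.947) and Fut10 (0.945). Aldh1a1, which encodes a retinaldehyde dehydrogenase, had group means of 8.69 in PreMegE, 7.18 in GMP GFP+, 7.88 in PreGM GFP+, 6.09 in GMP GFP-, 6.45 in PreGM GFP-, 6.12 in CLP, 6.08 in LMPP and 9.11 in HSC GFP-. Picked for its likeness to Tek, it shared the ranking of HSC GFP-, PreMegE, PreGM GFP+ and GMP GFP+ at the top. Its SD in PreMegE was 1.27.

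Closest to Tie1 were Cxcr1 (0.966), Mpzl1 (0.965), Gng11 (0.965), Csgalnact1 (0.959) and Mamdc2 (0.949). Mamdc2 averaged 7.23 in HSC GFP- and 4.98 to 5.26 in the other groups. For Angpt2, which itself did not pass the F test, the closest were Psen2 (0.87), Slc6a20a (0.824), Psd3 (0.815), Pou5f2 (0.807) and Dapk2 (0.802).

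**Figure D3:**
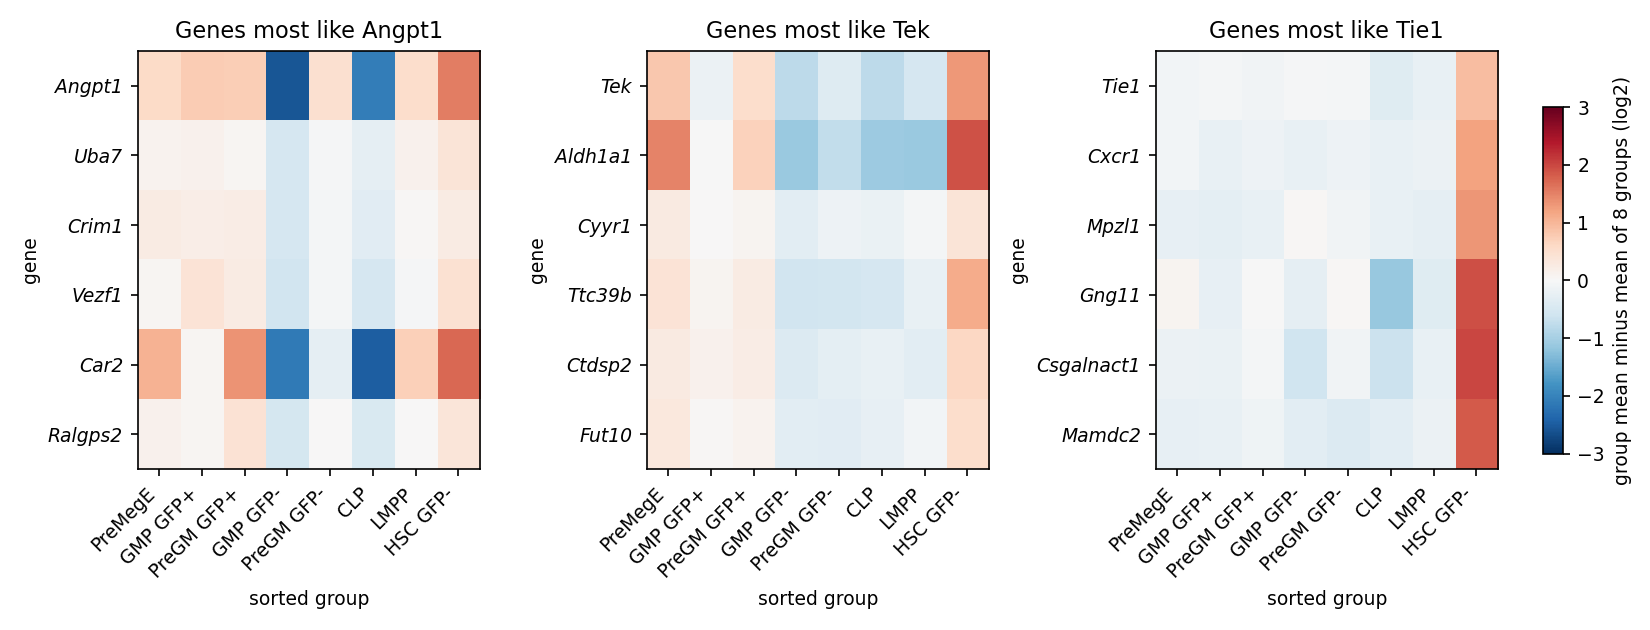
Group means of Angpt1, Tek and Tie1, each above the 5 genes most like it, as log2 signal minus the gene's mean over the 8 groups (colour, blue low and red high). Columns are the sorted groups and rows are genes, in falling order of Pearson's r with the top row; the Angpt1 rows are low in GMP GFP- and CLP, the Tek rows high in HSC GFP- and PreMegE, and the Tie1 rows high in HSC GFP-.

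The other genes of the pathway were read by list. Of 17 measured genes of Tie receptor signalling, the F test called 3, Pik3r1, Foxo1 and Foxo3, against 15.2% of all genes. Pik3r1, which encodes the regulatory subunit of the lipid kinase that Tie2 recruits, was 8.16, 9.39 and 8.66 in PreMegE, against 9.94, 9.79 and 9.81 in HSC GFP-. It was lower in PreMegE by 1.11 ± 0.26 (adjusted p = 0.01569 in limma) and was the only list gene called in that comparison, with a list median of -0.10 against 0.03 over all genes. In PreGM GFP+, against HSC GFP-, Pik3r1 was lower by 0.97 and again the only one called. Foxo1, which encodes a forkhead factor that this kinase pathway restrains, was 0.66 higher in CLP than in LMPP (adjusted p = 0.0347), the only one of the 17 called there. In each of the 2 reporter comparisons 0 of the 17 were called, with list medians of -0.06 in PreGM and -0.14 in GMP, against 0.04 and 0.08 over all genes. The mean reporter effect did call Akt1 of this list (-0.57, adjusted p = 0.04918 in limma), where 8.73% of all genes were called.

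Of 8 measured partners and regulators of the Tie receptors, the F test called Itgb3 and Adam17, against 15.2% of all genes. Itgb3, which encodes the beta 3 integrin chain, had log2 signals of 6.43, 6.67, 6.31 and 6.53 in LMPP, against 7.51, 7.07 and 7.21 in HSC GFP-. It was lower in LMPP by 0.78 ± 0.14 (adjusted p = 0.002148 in limma), the 1 gene of the list called, beside a list median of -0.25 against -0.04 over all genes. Itgb3 was also the 1 gene of the list called in PreGM GFP+ against HSC GFP- (-0.69).

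Among 5 other measured genes of the angiopoietin family, only Angptl1, a gene for an angiopoietin-like protein, was called by the F test. The share of all genes called was 15.2%. Its log2 signal was 6.69, 6.53 and 7.22 in GMP GFP+, against 5.90, 5.85, 5.57 and 5.94 in GMP GFP-, a signal difference of 1.0 ± 0.22 (adjusted p = 0.006011 in limma). Angptl1 was lower in LMPP than in HSC GFP- by 0.84 ± 0.22 (adjusted p = 0.04558), with 5.51, 5.66, 6.04 and 6.11 in LMPP and 6.80, 6.36 and 6.84 in HSC GFP-. Most of these values are under the median signal.

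Of 12 measured genes of the other endothelial receptor systems, the F test called 4, namely Nrp1, Eng, Vegfa and Vegfc. It called 15.2% of all genes. Eng, an endoglin gene whose product is a co-receptor of the TGF-beta family and the sorting antigen CD105, was lower than in HSC GFP- by 0.86 in LMPP (adjusted p = 0.01843) and by 0.86 in PreMegE (adjusted p = 0.02123). Because CD105 was gated in PreMegE, its level there is part of the sort. Nrp1, which encodes a co-receptor of vascular endothelial growth factor (VEGF), was lower by 1.01 in PreGM GFP+ than in PreGM GFP- and higher by 1.11 in CLP than in LMPP. Vegfa, which encodes VEGF-A, was lower by 0.61 in GMP GFP+, set against GMP GFP- (adjusted p = 0.00149). The receptor genes Kdr, Flt1 and Flt4 were not among the genes called by the F test.

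**Figure D4:**
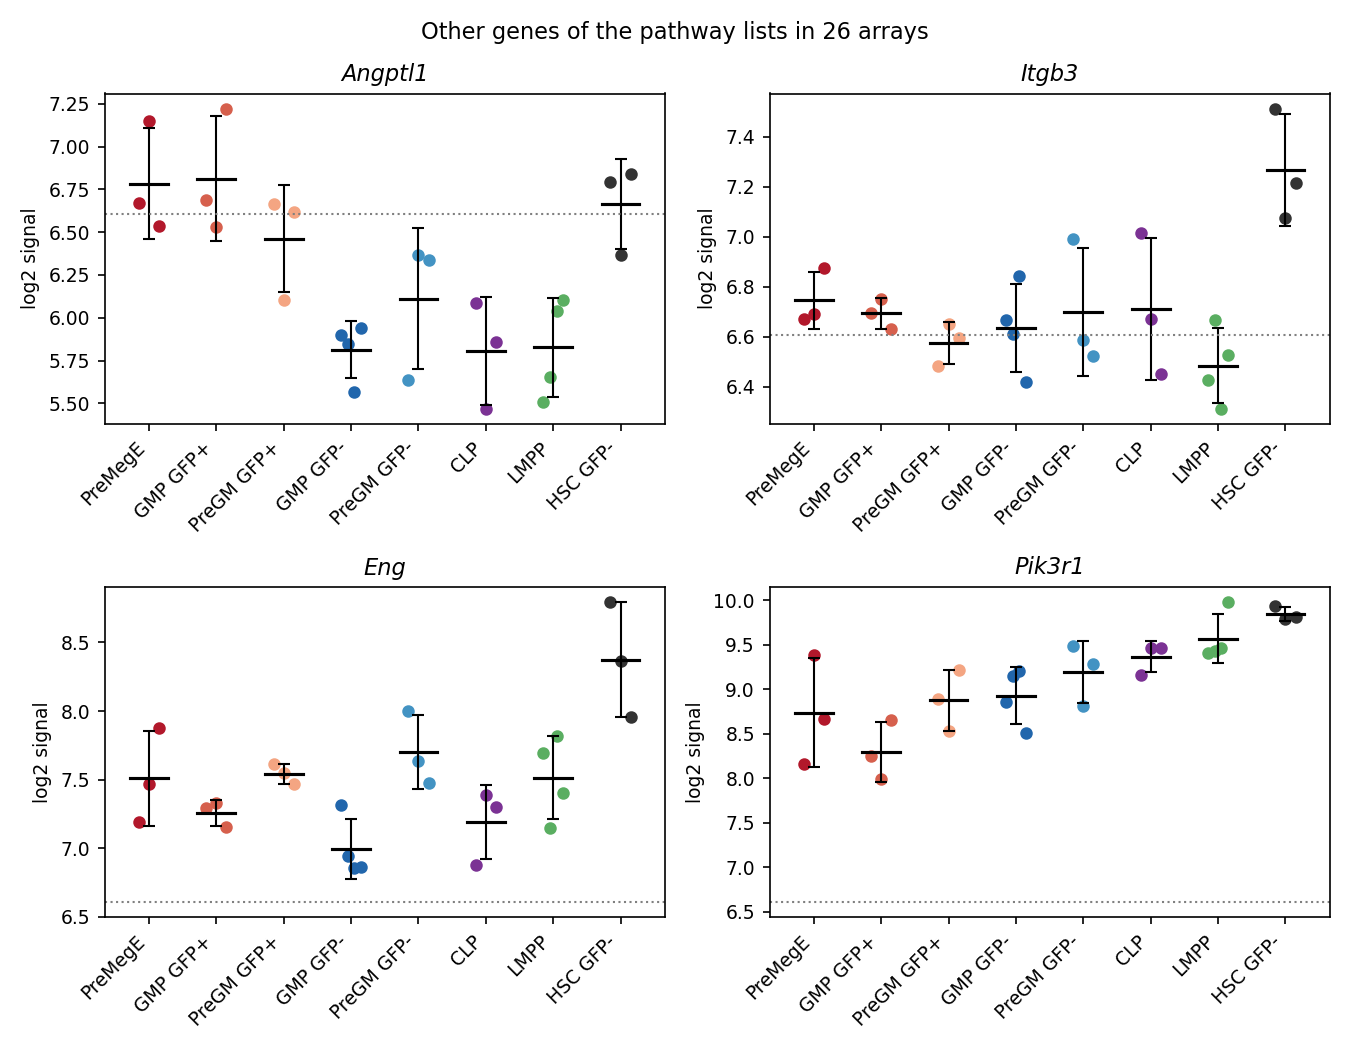
Log2 signal (vertical axis) of Angptl1, Itgb3, Eng and Pik3r1 on each of 26 arrays, by sorted group (horizontal axis). Points are arrays, black bars are group means with SD, and the dotted line is the median of all values, 6.61; all 3 HSC GFP- arrays lie above every other array for Itgb3.

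Of 16 transcription factor genes bound at Tie and angiopoietin genes or shared by stem cells and endothelium, 12 were called by the F test. Of all genes that test called 15.2%. The GMP reporter comparison called 4 higher and 2 lower, against 3.22% higher and 4.05% lower of all genes. The list median there was -0.06, against 0.08 over all genes. Gata2, which encodes a GATA factor of stem cells and mast cells, was 9.13, 9.74 and 10.16 in GMP GFP+, against 7.37, 7.18, 7.44 and 7.29 in GMP GFP-, a difference of 2.36 ± 0.17 (adjusted p = 3.013e-09 in limma). Runx1, which encodes a master factor of blood stem cell emergence, was higher by 1.06, Ets1 by 0.72, and Lmo2 was lower by 0.91. In PreGM Gata2 alone was called, higher in PreGM GFP+ by 1.80. LMPP against HSC GFP- likewise called Gata2 alone, lower in LMPP by 1.02 (adjusted p = 0.001296), while PreGM GFP+ exceeded HSC GFP- in Gata2 by 0.94. Erg, an ETS factor gene of stem cells, was lower than in HSC GFP- by 0.88 in PreMegE and by 1.13 in PreGM GFP+.

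Since Tek and Tie1 are endothelial genes, markers of endothelial cells were read beside them. The mean signal of 16 endothelial genes lay between 6.35 and 6.44 on the HSC GFP- arrays, against 6.20 to 6.47 over the arrays of all groups, and 11 of the 16 had a mean below the median signal in HSC GFP-. The F test called 2 of the 16, Emcn and Pecam1, against 15.2% of all genes. The 6 defining genes, Cdh5, Plvap, Cldn5, Stab2, Flt4 and Fabp4, had a mean signal of 6.04 to 6.13 on the HSC GFP- arrays, and the F test called 0 of the 6. In LMPP against HSC GFP-, where Tek and Tie1 were lower, 0 of the 16 were called. In PreMegE and in PreGM GFP+, each against HSC GFP- and each with Tie1 lower, 1 of the 16 was called. That gene was Emcn, lower by 2.13 in PreMegE (adjusted p = 0.0002123 in limma) and by 2.14 in PreGM GFP+ (adjusted p = 0.0001821). Of 17 stem cell genes, 0 were called higher and 10 lower in LMPP against HSC GFP-, against 1.03% higher and 1.28% lower of all genes. Their list median was -0.76 against -0.04 over all genes. The list holds Slamf1, whose product CD150 was gated in both groups. The part of either cell type in the Tek and Tie1 levels was not tested.

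Beside the GMP reporter difference in Angpt1, 9 of 10 mast cell and basophil genes and 8 of 11 erythroid genes were called higher in GMP GFP+. Of all genes 3.22% were called higher there. The mast cell and basophil genes had a mean signal of 9.56 to 9.73 on the GMP GFP+ arrays, against 6.51 to 6.72 on the GMP GFP- arrays. In PreGM, where Angpt1 was not called, 5 of the 10 mast cell and basophil genes were called higher in PreGM GFP+. So were 8 of the 11 erythroid genes, against 0.908% of all genes. The 6 defining genes of stroma, the marrow cells best known as a source of angiopoietin 1, had a mean signal of 5.88 to 6.07 in GMP GFP+, against 5.76 to 5.88 in GMP GFP-, and the F test called 0 of them. Single markers of other cells were called in that comparison. Fabp4, of the defining endothelial genes, was higher by 0.76 in GMP GFP+, with means under the median signal in GMP GFP+ (5.52) and GMP GFP- (4.76). Pdgfrb, of the stromal list, was higher by 0.97 in GMP GFP+. The part of these cell types in the levels of the members was not tested.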

How the data were processed

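RNA of 26 sorted samples was measured on Mouse Gene 1.1 ST arrays. The submitters' processing notes name RMA and oligo, without versions. The deposited table gives a log2 signal for every probe set on every array; base 2 is taken from the range, and no raw intensities were used. Of 35556 probe sets, 21789 named 1 gene in the annotation used, that of the 1.0 ST version, and the 1621 naming several genes and the 12146 naming none were left out. The probe set with the highest mean over the arrays was taken per gene, leaving 19938 genes.

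A model with 1 coefficient per group was fitted to all 26 arrays in limma 3.58.1 (R 4.3.3). P-values were adjusted over all genes within each contrast (Benjamini-Hochberg), with calls at an adjusted p under 0.05. Differences are first-named minus second-named group. The members and lists were chosen with earlier results of these data known. Other genes were named by rule: at most 4 called genes with the largest difference per list and comparison, the sorting markers, and per member the 5 genes with the highest r, passing over model identifiers, small RNAs, olfactory receptors and antigen receptor segments. Meis1, Kdr, Flt1 and the marker genes were named after their values were seen. Alternatives were other normalizations, filters, probe set rules, array weights, priors, sample choices and each array left out.  RefSeq promoters were searched for motifs chosen with the sequences in view.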

Additional observations from a re-analysis of the deposited data

Results flagged for a closer look

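The reporter effect differed between PreGM and GMP for 0.702% of all genes by limma's test of the difference. Of these, 3 are given here, and marker list genes such as Pecam1 (-1.84, adjusted p = 0.01245) were called as well. For Angpt1 the effect in PreGM minus that in GMP was -3.07 (0.26 in PreGM, 3.33 in GMP, adjusted p = 0.0002437). For Vegfa it was 1.01 (0.40 in PreGM, -0.61 in GMP, adjusted p = 0.001806), and for Runx1 -1.50 (-0.44 in PreGM, 1.06 in GMP, adjusted p = 0.002416).

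In the 2 groups of 4 arrays, 1 array stood apart from the other 3 in 3 of 92 combinations of gene and group checked, where chance alone gives about 5%. The gap is given as a share of the group's range. Vezf1 in GMP GFP- was 10.16 on replicate 3, against 9.64 to 9.70 on the others (gap 0.870), and this replicate also had the highest Angpt1 of GMP GFP-. Mpzl1 in GMP GFP- was 6.66 on replicate 2, against 7.08 to 7.14 (gap 0.874). Pik3r1 in LMPP was 9.98 on replicate 4, against 9.40 to 9.47 (gap 0.895).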

How the results depend on the processing

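The alternatives were run for the F test and 12 contrasts, not for the remaining pairs of groups. The 13 calls of the 4 genes among these kept their side and direction under the 9 other settings (8 for the F test) and the 26 fits with 1 array left out. Uncalled results changed side or sign as follows, and the cause was not tested. With arrays weighted by precision (the weights did not reach their convergence tolerance) Tek in GMP GFP+ against PreGM GFP+ was called at -0.86 (adjusted p = 0.0493; 0.0493 to 0.4836 over the settings), and with only the groups compared in the fit Angpt1 in PreGM GFP+ against HSC GFP- was called at -0.79 (adjusted p = 0.01649; 0.01649 to 0.2422). The Tie1 difference between reporter effects turned to 0.0042 with arrays centred on their medians and to 0.0022 with precision weights. Deviations of same-numbered arrays had a median correlation of 0.03, with 18 of 85 pairs over 0.1, against -0.01 and 26 of 210 for different numbers. In no comparison were all pairs over 0.1 (nearest, PreGM GFP- against LMPP with 0.224, 0.325 and 0.0996), so the numbers were not taken to pair samples. The fit with the replicate block moved Tie1 in GMP GFP- against PreGM GFP- to -0.0081 and changed no other direction or call of the members.

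Leaving out 1 array at a time gave these ranges for results that changed sign or side. Angpt1 was -0.0176 to 0.081 in GMP GFP+ against PreGM GFP+, -0.2076 to 0.0735 in PreGM GFP- against LMPP, -0.3749 to 0.0161 in PreMegE against PreGM GFP+, -1.13 to -0.85 in LMPP against HSC GFP-, and -1.17 to -0.78 in PreMegE against HSC GFP-. Angpt2 was -0.3248 to 0.0946 in CLP against LMPP, -0.0058 to 0.3605 in GMP GFP+ against GMP GFP-, -0.0203 to 0.4404 in GMP GFP+ against PreGM GFP+, -0.0615 to 0.3597 in LMPP against HSC GFP-, -0.065 to 0.3562 in PreGM GFP+ against HSC GFP-, and -0.0228 to 0.4379 between the reporter effects. Tek was 0.75 to 1.04 in PreGM GFP+ against PreGM GFP-, -0.0257 to 0.6734 in PreMegE against PreGM GFP+, and -1.01 to -0.58 in PreGM GFP+ against HSC GFP-, where it was called without PreMegE replicate 1 (adjusted p = 0.03458; 0.03458 to 0.4113 over the arrays left out). Tie1 was -0.088 to 0.0449 in GMP GFP+ against GMP GFP-, -0.0613 to 0.1248 in GMP GFP+ against PreGM GFP+, -0.0341 to 0.0607 in GMP GFP- against PreGM GFP-, -0.123 to 0.0417 in PreGM GFP+ against PreGM GFP-, -0.1005 to 0.112 in PreMegE against PreGM GFP+, -0.0796 to 0.0028 in the mean reporter effect, and -0.1082 to 0.0779 between the reporter effects.

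Counts over all genes moved more than those of the members. With precision weights, calls numbered 4649 against 3036 in the F test, 2799 against 1449 in the GMP reporter split, 842 against 462 in LMPP against HSC GFP-, 581 against 314 in CLP against LMPP, 348 against 203 in GMP GFP+ against PreGM GFP+, 213 against 408 in the PreGM reporter split, 99 against 277 in GMP GFP- against PreGM GFP-, 46 against 174 in PreGM GFP- against LMPP and 21 against 13 in PreMegE against PreGM GFP+. With only the groups compared in the fit, calls fell to 217 in the PreGM reporter split, 228 in LMPP against HSC GFP-, 264 (against 634) in PreMegE against HSC GFP-, 389 (against 723) in PreGM GFP+ against HSC GFP-, 165 in CLP against LMPP, 174 in GMP GFP- against PreGM GFP-, 116 in GMP GFP+ against PreGM GFP+, and 66 in PreGM GFP- against LMPP. PreMegE against PreGM GFP+ had 0 to 21 calls by limma over the alternatives.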

Other observations

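Emcn and Pecam1 were the 2 genes of the endothelial list that passed the F test. Emcn, which encodes the surface sialomucin endomucin, was 7.19, 6.64, 8.07 and 7.41 in LMPP, against 7.65, 7.01 and 8.12 in HSC GFP-, and these groups overlapped. Its group mean was highest in HSC GFP- (7.60), as for Tek and Tie1, with 7.33 in LMPP and 5.18 to 5.99 in the other groups. Its signal was lower in CLP than in LMPP by 2.15 (adjusted p = 0.000127 in limma), with 5.12, 5.03 and 5.38 in CLP. Pecam1, which encodes the adhesion protein CD31, averaged 8.65 in PreGM GFP+ and 9.88 in PreGM GFP- (n = 3 each), a difference of -1.23 ± 0.27 (SE; adjusted p = 0.01131 in limma). These genes were chosen after their values were seen.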
